A study of Mus musculus with 14 samples.

Results

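The promoters described here are 1780 accessible regions that appeared while the transcription factor GATA6 turned mouse embryonic stem (ES) cells towards primitive endoderm (PrE). They were chosen by their calls in ATAC-seq peak lists, from 121891 regions made by merging the autosomal peaks of 14 libraries. A member had its midpoint within 1 kb of the transcription start site (start) of a protein-coding transcript, was called in neither 0 h library and was called in both 48 h libraries. The calls at 0 h and 48 h are therefore part of the choice and are given as a description, as is a midpoint near a start. The calls in the 10 libraries of 2, 4, 8, 16 and 24 h were not required, but the peaks of those libraries helped to set the edges and midpoints of the merged regions. Each test was therefore repeated on regions merged from the 0 h and 48 h lists alone, a choice made after the data were seen. All cells were KH2 ES cells, labelled as strain C57BL/6, with a doxycycline (Dox)-inducible transgene, TRE:GATA6-DSREd2, which the uninduced cells carry too. Libraries came from 50000 cells each, with 2 libraries at each of the 7 time points. The 0 h cells were kept in 2i medium, with 2 kinase inhibitors and LIF, and received no Dox. The 2, 4 and 8 h cells were in serum and LIF medium with Dox at 1 µg/mL, and the 16, 24 and 48 h cells had Dox for 12 h and then the same medium without it. The change of medium and the induction began together, and with no library from serum without Dox they cannot be told apart here. The study describes its replicates as independent experiments, and the labels do not say which steps the 2 libraries of a time point shared. The transgene gives its product in every cell that responds to Dox. The libraries are of whole cultures, so from them a change in each cell and a change in the share of cells cannot be told apart. The study found no ATAC peak that differed between sorted and unsorted cells, and it does not fully exclude some variability between cells. Sorted cells are not among the libraries used here.

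A promoter is the stretch around a start where the transcription machinery assembles, and its DNA must be reachable for the transposase of ATAC-seq to cut it. Many promoters lie in CpG islands, which are rich in unmethylated CpG and tend to be accessible in most cell types, while CpG-poor promoters more often open in particular tissues and with particular transcription factors. PrE is the layer of the blastocyst that gives the yolk sac endoderm, and GATA6, GATA4, SOX17, SOX7, HNF4A and the FOXA factors mark it or its derivatives. GATA factors bind sequences with a GATA core.

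Gained promoters with a GATA motif just before the start are shown first, since the motif of the induced factor within a gained promoter is the sequence feature that the later comparisons count. The motif, named WGATAR, was read as AGATAA or AGATAG or TGATAA or TGATAG on either strand. The 7 stretches come from the named genes with the highest scores at 48 h, lie before the start, and are printed on the gene's strand with the motif in capitals (GRCm38 reference genome).
Arl14: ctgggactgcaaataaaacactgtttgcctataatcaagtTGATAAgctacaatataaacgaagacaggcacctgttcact
Krt8: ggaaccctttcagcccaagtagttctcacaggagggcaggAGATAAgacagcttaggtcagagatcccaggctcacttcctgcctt
Mylk3: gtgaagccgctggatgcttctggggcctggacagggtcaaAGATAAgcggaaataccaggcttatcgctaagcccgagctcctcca
Stra6: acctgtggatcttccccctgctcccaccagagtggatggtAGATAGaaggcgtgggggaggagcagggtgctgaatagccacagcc
Sycn: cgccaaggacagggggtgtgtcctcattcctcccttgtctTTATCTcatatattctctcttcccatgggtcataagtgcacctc
Akr1c19: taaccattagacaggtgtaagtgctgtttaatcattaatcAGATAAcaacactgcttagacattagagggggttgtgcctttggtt
Cmbl: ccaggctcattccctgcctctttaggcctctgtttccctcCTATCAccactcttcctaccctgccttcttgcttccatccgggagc
They lie for Arl14 at chr3:69222338-69222418 (plus strand), Krt8 at chr15:102004536-102004621 (minus strand), Mylk3 at chr8:85381046-85381131 (minus strand), Stra6 at chr9:58131789-58131874 (plus strand), Sycn at chr7:28540801-28540884 (plus strand), Akr1c19 at chr13:4233602-4233687 (plus strand) and Cmbl at chr15:31568659-31568744 (plus strand). The motif ends 36 bases before the start of Arl14, 94 before that of Krt8 and 108 before that of Mylk3. In Arl14, Stra6, Sycn and Cmbl it lies outside the central 200 bases used for the counts given later. Arl14 and Sycn were still counted as holding WGATAR, through another site that is not printed.

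Members made up 9.02% of the 19726 promoter regions, whereas gained regions made up 14.5% of all 121891 regions. The other promoter regions without a call at 0 h comprised 1436 called in 1 of the 2 libraries at 48 h and 1853 called in neither, and 1071 promoter regions called in both 48 h libraries missed the choice because 1 of the 0 h libraries called them. The number is sensitive to single libraries: with replicate 1 or replicate 2 alone it was 3342 or 3396. At the distance limit, members with midpoints 1000 bp from a start lay near Gmeb1 and Aldoa and 1 at 999 bp near Crx, and gained regions just outside, at 1002, 1004 and 1005 bp, lay near Clcn7, A530084C06Rik and Ints6. The lists held 55588 to 65073 peaks, with more in replicate 2 at 7 of 7 time points. The lists give no read counts, and the read numbers listed by the study were not used here. A missing call does not show a closed promoter.

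The members belonged by nearest start to 1628 genes, 7.86% of the 20722 protein-coding autosomal genes. At 137 genes there were 2 or more members, up to 4 at Mical2, and 133 members lay within 1 kb of starts of 2 or more genes. Their median width was 464 bp, against 892 bp for the 9592 promoters called in all 14 libraries, and their midpoints lay a median of 224 bp from the start, against 110 bp. Of the members, 979 (55.0%) covered a start and 801 (45.0%) lay beside it, whereas 92.9% of promoters called in all 14 libraries covered one. Upstream midpoints made up 48.9%. A region called in 14 lists is the union of at least 14 peaks and a member may be the union of 2, so part of the difference in width and in starts covered comes from the merging itself. Members fell on either side of the start about equally.

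Another promoter region of the same gene was called in all 14 libraries for 698 members (39.2%). For 418 of them (23.5% of members) that region lay within 1 kb of the same start, so the member is a further accessible patch beside a promoter already called, with a median width of 262 bp. For 280 (15.7%) the region called throughout lay at another start only. The nearest such region was upstream of the member for 176 and downstream for 104, at a median of 10009 bp, so that these members sit at an alternative start of a gene with a start open from the beginning. At the other extreme, 675 members of 625 genes had no region called in a 0 h library within 1 kb of any start of the gene, 3.02% of protein-coding genes, and 499 of these members covered a start. The Gata6 gene itself held no member. Its region at chr18:11052263-11053415 was called in all 14 libraries, and its 2 other regions, called in neither 0 h library, were called in 0 and 1 of the 48 h libraries.

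**Figure D1:**
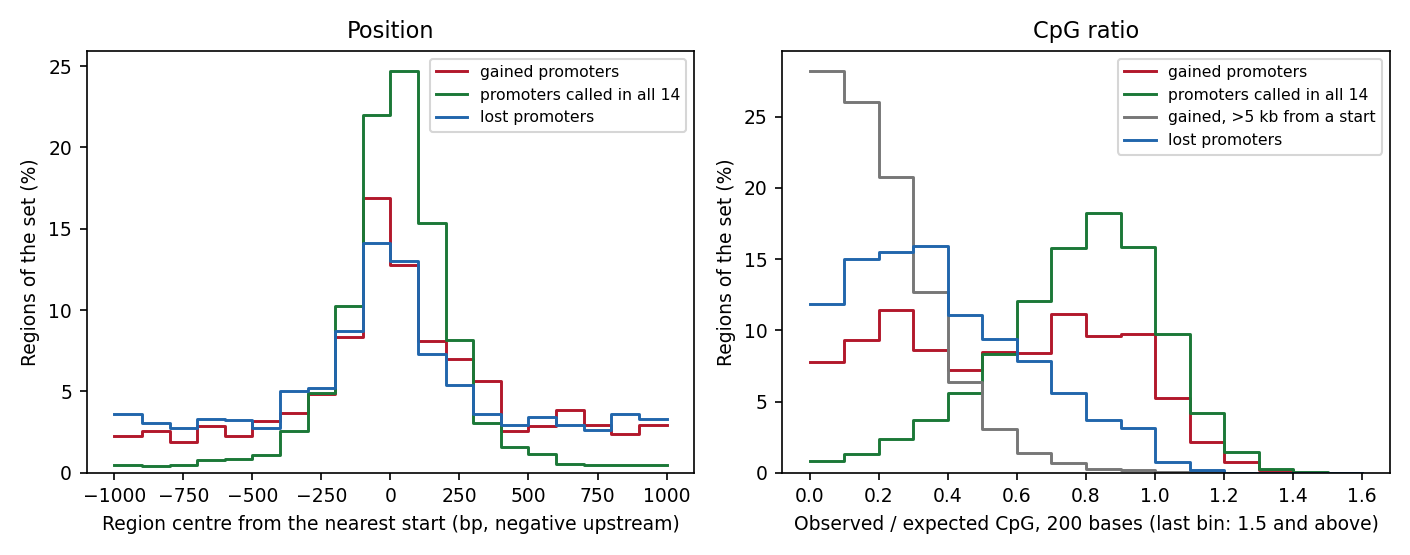
Left, percent of regions of each set by distance of the region's centre from the nearest start in bp (100 bp bins, negative upstream). Right, percent of regions by observed over expected CpG ratio in the central 200 bases. Gained promoters lie less tightly around the start than promoters called in all 14 libraries, and their CpG ratios (median 0.570) spread between those of distal gained regions (median 0.184) and promoters called in all 14 libraries (median 0.799).

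The share of members called was then followed through the libraries whose calls the choice did not require. At 2 h, 16.6% and 15.8% of the members were called in replicates 1 and 2, and at 4 h 19.7% and 19.0%. At 8 h the shares were 34.0% and 41.5%, at 16 h 47.1% and 45.1%, and at 24 h 65.3% and 67.9%. The replicates of a time point overlapped with no replicate of another time point, and 8 h had the widest spread, 37.8% ± 5.32 (SD, n = 2). Over these 10 libraries the share increased with time by both coefficients. The choice of no call at 0 h and calls at 48 h favours such a rise. The tests below therefore do not show it independently of that choice. Spearman's rho was 0.985 (two-sided permutation test, p = 2e-05 before and after adjustment over the 2 coefficients). Pearson's r was 0.977 (permutation p = 1e-05, which 100000 shuffles cannot go below, and 2e-05 adjusted). With the 2 libraries at the most distant times left out, r came to 0.937 and rho to 0.976 (exact permutation p = 0.000397 and 0.000794, n = 8). Within replicate 1 and within replicate 2 rho was 1 (exact permutation p = 0.0167, n = 5 each). On regions merged from the 0 h and 48 h lists alone, with 1959 members, rho was again 0.985, and the shares ran from 18.2% and 17.5% at 2 h to 64.9% and 67.9% at 24 h.

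The early values need a baseline, because a region chosen for the absence of a call at 0 h can be called in a further library by the variation of calling alone. When the rule used only 1 of the 0 h libraries, the other 0 h library called 13.7% and 30.7% of the promoters so chosen. Of these same promoters the 2 h libraries called 21.2% and 28.8%, and the 4 h libraries 24.0% and 29.8%, in each case more than the left-out library in the first choice and less in the second. The 8 h shares of 41.9% and 49.3% lay above both. For regions more than 5 kb from a start the left-out 0 h library called 6.87% and 9.46%, below the 17.4% and 18.7% at 2 h. At 2 and 4 h a rise of the promoter share over the uninduced state was therefore not detectable in these lists, and from 8 h on the shares lay above both baseline values. The differences from this baseline were not tested.

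Calls in both libraries at once give a stricter count. At 2 h both libraries called 161 members (9.04%), and of all 5069 promoter regions without a 0 h call, the members among them, they called 9.73%. At 4 h the values were 211 members (11.9%) and 10.3% of all such regions, and at 8 h 464 members (26.1%) and 16.2%. At 16 h they were 655 (36.8%) and 22.5%, and at 24 h 1009 (56.7%) and 27.5%. The members were at the background at 2 h and about 2 times the background at 24 h. As the background holds the members, the ratio at 24 h understates their difference from the other regions. Promoters called in no 0 h or 48 h library were called at 20.8% to 30.0% on average at the times between, and promoters called in both libraries of 0 h and 48 h at 95.6% to 98.7%.

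**Figure D2:**
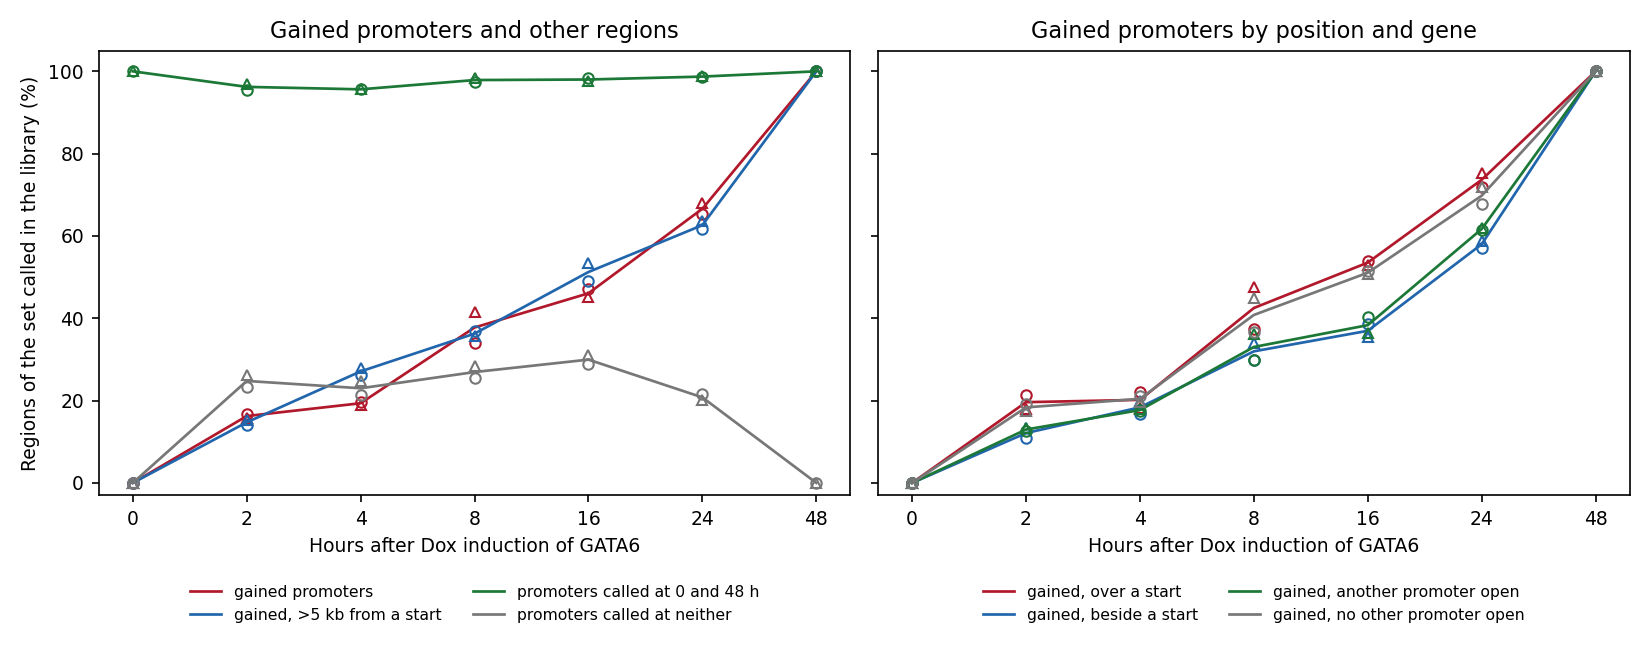
Percent of the regions of each set that were called in a library (circles, replicate 1; triangles, replicate 2; lines, means of 2) against hours after Dox, with time points evenly spaced. Gained promoters go from 16.2% at 2 h to 66.6% at 24 h on average, alongside distal gained regions, and those over a start lie above those beside it from 8 h; the values at 0 and 48 h are fixed by the choice of regions.

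Gained regions more than 5 kb from any start (distal, 13685) were set beside them over the 10 libraries. The members lay above them in 5 libraries and below in 5, with a mean difference of -1.18 percentage points and a range from -8.92 to 5.80 (exact two-sided sign-flip test over libraries, p = 0.496, adjusted p = 0.620 over the 5 differences tested). With regions merged from the 0 h and 48 h lists alone the difference was -0.533 points, higher in 5 libraries and lower in 5 (exact sign-flip test, adjusted p = 0.848). By time point, members were lower at 4 h, with differences of -6.55 and -8.92 points in replicates 1 and 2 (27.1% of distal regions and 19.4% of members called), and higher at 24 h, with differences of 3.58 and 4.38 points. These raw shares start from different baselines, a mean of 22.2% for promoters and 8.17% for distal regions in the left-out 0 h libraries, so the test does not compare the rise over the uninduced state, and single time points were not tested.

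Each member was dated by its onset, the earliest time point from which both libraries of it and of every later time point called the region. The call was kept from 2 h for 76 members, from 4 h for 77, from 8 h for 175, from 16 h for 252, from 24 h for 429 and from 48 h only for 771 (43.3%). With at least 1 library of each later time point in place of both, the last share was 23.5%. No library of 2 to 24 h called 323 members (18.1%), and 114 (6.40%) were called in both libraries of a time point and then in neither of a later one. Among distal gained regions these last shares were 24.1% and 4.33%. That a call stayed is in part fixed by the definition of onset and by the calls required at 48 h, so the late classes in particular do not measure persistence.

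Scores within a library followed the same order. The score is the deposited value of each peak, on an unstated scale, and is given here as a percentile of all peaks of that library. At 48 h the median percentile of the members was 42.2 ± 5.71 (SD, n = 2), against 85.9 ± 1.37 for promoters called in all 14 libraries and 47.4 ± 0.327 for distal gained regions. Members kept from 2 h had a median percentile of 44.7 ± 3.34 at 2 h and 65.2 ± 3.06 at 4 h, and stayed between 63.3 and 68.3 later. Members kept from 8 h went from 29.8 ± 5.00 at 8 h to 43.0 ± 0.739 at 16 h, 52.3 ± 1.4 at 24 h and 58.4 ± 3.49 at 48 h. Members kept only from 48 h were at 31.2 ± 5.54 (SD, n = 2 throughout), so the largest class was also that with the lowest scores. These medians were not tested.

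The position of a member and the state of its gene went with its calls. Members over a start were called more often than members beside one in 9 of 10 libraries, by 10.4 percentage points on average (range from -1.57 to 17.7; exact two-sided sign-flip p = 0.00391, adjusted p = 0.00977). The 10 differences use the same regions, and 2 libraries share each time point. The differences are therefore not independent, in this and the other sign-flip tests. Of those over a start 53.5% ± 0.722 were called at 16 h and 73.6% ± 2.46 at 24 h, and of those beside it 37.0% ± 2.30 and 58.0% ± 1.15 (SD over 2 libraries). Members over a start were also wider, with medians of 607 and 325 bp, and had higher scores at 48 h, with median percentiles of 44.3 and 37.6. The tested libraries help to set that width, since a region called in more lists tends to be wider and so to reach a start. With regions merged from the 0 h and 48 h lists alone, the difference was 6.86 points, higher in 9 of 10 libraries (exact sign-flip test, adjusted p = 0.0342). The part of width in the remaining difference was not tested. Among members with a 48 h score above the median the difference was 7.78 points (exact p = 0.00391), a comparison chosen after the data were seen.

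Members of genes with another promoter open throughout were called less often than the other members in 10 of 10 libraries, with a mean difference of -7.35 points (range from -14.3 to -1.78; exact two-sided sign-flip p = 0.00195, the smallest that 10 libraries allow, adjusted p = 0.00977). Their shares were 38.3% ± 2.74 at 16 h and 61.7% ± 0.304 at 24 h, and those of the other members 51.1% ± 0.588 and 69.8% ± 2.88 (SD over 2 libraries). Of members with another open promoter 35.7% covered a start, against 67.5% of the others, and their median widths were 327 and 557.5 bp. With regions merged from the 0 h and 48 h lists alone the difference was -5.61 points, lower in 9 of 10 libraries (exact test, adjusted p = 0.0195). Here too the 10 differences are not independent. The grouping also uses the tested libraries, since open throughout means a call in all 14, with either merging. In the main merging, a peak of these libraries that joined a member to an open region would have removed the member. The test is therefore not independent of the grouping. The comparison overlaps with that by position, and the parts of the 2 features were not told apart. Members with such a promoter at another start only had a mean share called of 36.1% over the 10 libraries, and those with it at the same start 30.5%. For members of genes without any 0 h region near a start it was 41.4%.

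The motif of the induced factor was more common in members than in promoters in general, and less common than in distal gained regions. WGATAR was present in the central 200 bases of 457 members (25.7%, 95% Wilson interval 23.7 to 27.8%), in 14.1% of all promoter regions, in 8.98% of promoters called in all 14 libraries and in 14.4% of the 1054 promoters lost by 48 h. Among distal gained regions the share was 61.5%. A permuted control, named WAGTAR and read as AAGTAA or AAGTAG or TAGTAA or TAGTAG on either strand, was present in 14.7% of members, 12.8% of all promoter regions and 25% of distal gained regions. The intervals here and below cover counting over regions, which are not replicates.

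Base composition differed between these sets and moves with the motif. The median CpG ratio, observed over expected, was 0.570 in members, 0.799 in promoters called in all 14 libraries, 0.348 in lost promoters and 0.184 in distal gained regions. The members spanned a wide range, with quartiles at 0.267 and 0.823. Members with WGATAR had a median ratio of 0.263 and those without it 0.681, and 40% and 60.2% of them covered a start. Members over a start had a median CpG ratio of 0.714 and held WGATAR in 18.7% of cases, against 0.413 and 34.2% for members beside a start.

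Members whose call was kept from 2 or 4 h on held the motif most often. Among all calls at 2 h, kept or not, members with the motif were called less often than those without, at 14.7% and 16.8%. WGATAR was present in 47.4% (36.5 to 58.4%) of members kept from 2 h and 54.5% (43.5 to 65.2%) of those kept from 4 h. The share was 30.3% (24.0 to 37.5%) from 8 h, 25.4% (20.4 to 31.1%) from 16 h, 16.8% (13.5 to 20.6%) from 24 h and 24.6% (21.7 to 27.8%) from 48 h only. The control motif lay between 9.92% and 17.1% at every onset. The early classes were also CpG-poor, with median ratios of 0.317 and 0.263 at 2 and 4 h and 0.524 to 0.691 from 8 h on. Within the members at or below the median CpG ratio, 63.0% of the 108 kept from 2 or 4 h held WGATAR, against 38.5% of the 390 kept from 48 h only, with 19.4% and 23.1% for the control. Within those above the median the shares were 22.2% of 45 and 10.5% of 381.

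**Figure D3:**
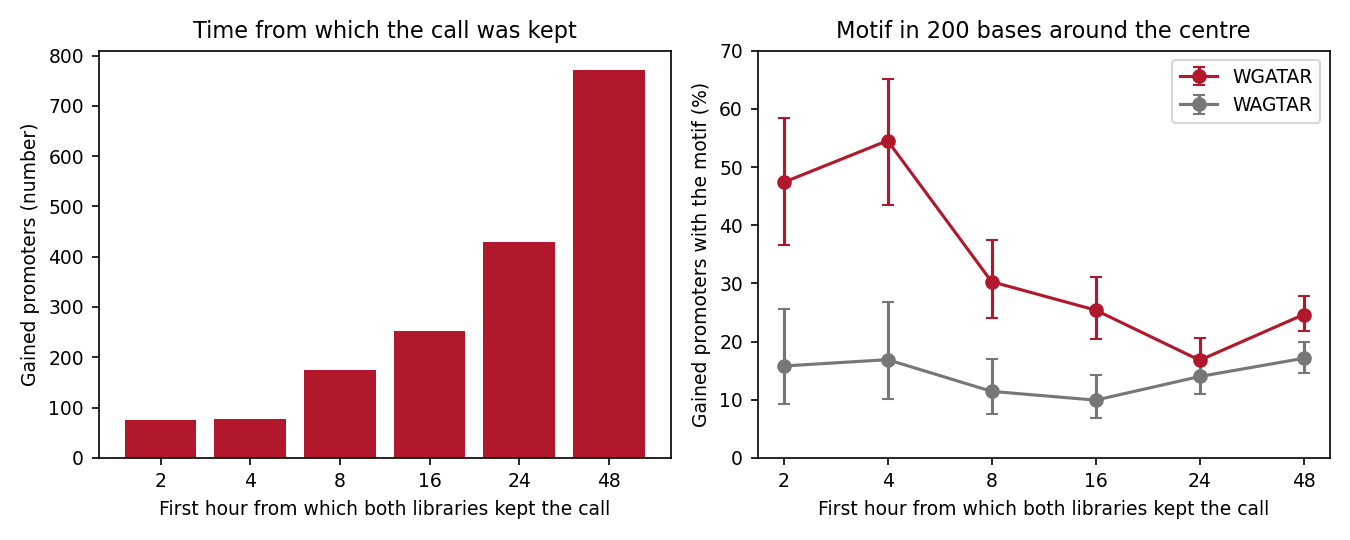
Left, number of gained promoters by the first hour from which both libraries of every later time point called them, from 76 at 2 h to 771 at 48 h. Right, percent of these promoters with WGATAR or the control WAGTAR in the central 200 bases, with 95% Wilson intervals; WGATAR is at 47.4% and 54.5% for 2 and 4 h and between 16.8% and 30.3% later.

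Across libraries the motif difference was small. Members with WGATAR were called more often than those without in 6 of 10 libraries, by 5.00 points on average (range from -2.35 to 14.2; exact two-sided sign-flip p = 0.0371, adjusted p = 0.0618), which does not pass after adjustment. The difference was 11.6 ± 3.61 points at 4 h, 8.38 ± 5.08 at 8 h and 7.94 ± 3.38 at 16 h, but -2.12 ± 0.332 at 2 h and -0.844 ± 0.638 at 24 h (SD over 2 libraries). It passed with regions merged from the 0 h and 48 h lists alone (6.17 points, higher in 8 of 10 libraries, exact adjusted p = 0.0358), within CpG-poor members (7.62 points, higher in 8 of 10 libraries, exact p = 0.0117, adjusted p = 0.0234 over 2) and not within CpG-rich ones (1.63 points, 7 of 10, exact p = 0.271, adjusted p = 0.271), comparisons chosen after the data were seen. A difference between the CpG classes themselves was not detected (0.578 points, higher in 6 of 10 libraries, exact p = 0.779, adjusted p = 0.779).

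Among other factor motifs, TGTTTAC, the forkhead core, was present in 2.87% of members and 1.61% of all promoter regions, and CAAAGTCCA, an HNF4 site, in 0.730% and 0.259%. CATTGT, bound by SOX factors, was present in 8.09% and 5.08%. TGANTCA, the AP-1 site, was at 4.55% and 4.38%, and ATGCNAAT, the octamer of POU factors, at 1.29% and 1.48%. GGGCGG, the SP1 box of CpG-rich promoters, was at 34.9% and 43.5%, and CCAAT at 16.3% and 21.0%. Motifs were searched on both strands, some overlap others in base composition, and the shares are descriptions without a test.

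The genes of the members were compared with lists of genes by function. Of the PrE genes on the study's own list, 106 of 570 matched (18.6%) had a member and 16 (2.81%) had a promoter lost by 48 h. Of its list of epiblast (Epi) genes, 33 of 218 (15.1%) had a member and 29 (13.3%) a lost promoter. Over all protein-coding genes the shares were 7.86% and 4.85%. Both lists exceeded all genes in gained promoters, and the lists differed more in lost ones. Among genes with at least 1 promoter region in any library the gained shares were 18.9%, 15.9% and 11.2%, so the lists stood closer to all genes. Neither list was tested. Genes without any 0 h region near a start numbered 29 on the PrE list (5.09%) and 6 on the Epi list (2.75%), against 3.02% of all genes. Members of PrE genes held WGATAR in 34.2% of cases and those of Epi genes in 16.2%, against 25.7% of all members.

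Endoderm transcription factors, the regulators that run the PrE programme, had members at 9 of 31 genes (29.0%, against 7.86% of all genes), among them Gata4, Sox17, Sox7, Foxa2, Hnf4a, Tcf7l2, Rara and Isx. A promoter lost by 48 h was present at 4 of the 31 (12.9%, against 4.85% of all genes), namely Otx2, Nr2f2, Cdx1 and again Tcf7l2. At Foxa2, a forkhead factor of endoderm, the region at chr2:148045809-148047006 covered the start and was called in both libraries from 8 h on. Its score percentiles in replicates 1 and 2 were 38.2 and 46.3 at 8 h, 65.3 and 71.0 at 16 h, 74.6 and 63.4 at 24 h and 76.8 and 70.1 at 48 h. Among the members over a start of these factors whose genes had no 0 h region near a start, its onset was the earliest.

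Hnf4a, a nuclear receptor of liver and visceral endoderm, had members at 2 starts. That at chr2:163506412-163506930 was called from 16 h on, at 53.5 and 53.4, then 79.8 and 78.3 at 24 h and 91.6 and 94.4 at 48 h, and that at chr2:163546974-163547242 from 24 h on. The scores of the region called from 16 h on were higher at each later time point in both replicates.

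Isx, an intestinal homeobox gene, had the earliest and highest of these regions, 630 bp upstream of its start at chr8:74872252-74872834. It was called in 1 library at 2 h (percentile 9.95) and in both from 4 h on, at 83.5 and 76.0 at 4 h and 95.9 and 95.2 at 48 h. At Sox17, a SOX factor of PrE, chr1:4496113-4496825 held WGATAR, was called in 1 library at 16 h (10.5) and in both at 24 h (6.24 and 8.31) and 48 h (48.3 and 54.0), and the gene had a region called in all 14 libraries 3702 bp downstream. At Rara, a retinoic acid receptor, an intronic member 777 bp upstream of a start was kept from 8 h on, with a region open throughout 21935 bp upstream, and a second member was called at 48 h only. Gata4, Sox7 and Tcf7l2 had members over a start that were kept only from 48 h. The Gata4 region at chr14:63271391-63272096 had calls in both libraries at 8 h but in 1 at 16 h and 1 at 24 h, and that of Sox7 at chr14:63943193-63943955 in 1 library at 24 h. Onsets at these factors thus ranged from 4 h to 48 h.

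**Figure D4:**
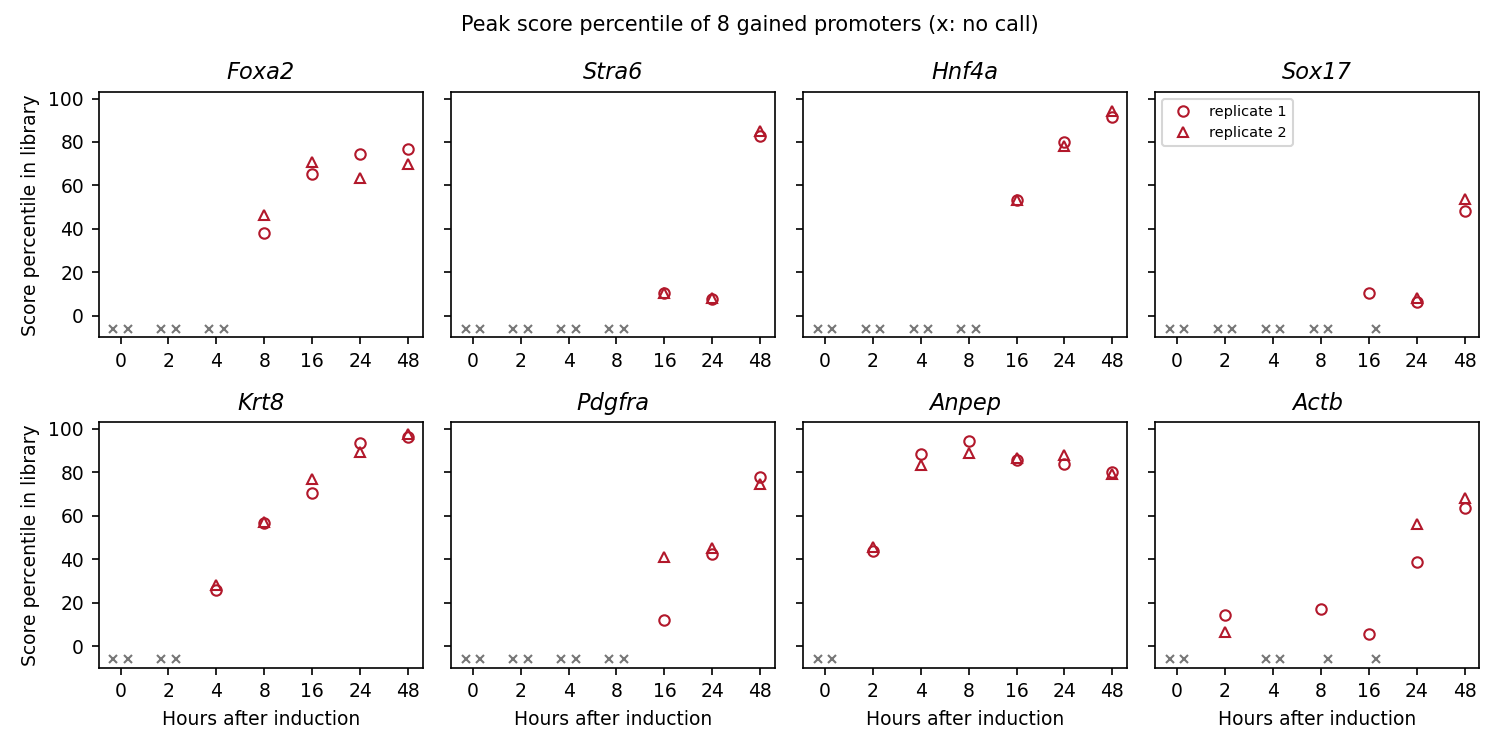
Peak score percentile within each library (circles, replicate 1; triangles, replicate 2; crosses below 0, no call) against hours after Dox for 8 gained promoters. Anpep is called from 2 h, Krt8 from 4 h, Foxa2 from 8 h, Hnf4a, Pdgfra and Stra6 from 16 h, and Sox17 in both libraries from 24 h; Actb, a housekeeping gene, is called off and on below the percentile of 20 until 16 h.

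Basement membrane genes, which build the matrix under the endoderm, had members at 6 of 40 (15% of genes, all of which had a promoter region, against 11.2% of all genes with such a region). More of them, 7 of 40 (17.5%, against 4.85% of all genes), had a promoter lost by 48 h. Serpinh1 had both. Serpinh1, the collagen chaperone HSP47, had a member 804 bp upstream of its start at chr7:99353760-99354326, with WGATAR, called in both libraries from 4 h on at percentiles of 79.1 and 89.4 and at 96.3 and 95.5 at 48 h. Agrn, encoding agrin, was kept from 8 h on. Hspg2, encoding perlecan, Lama5, a laminin chain, Plod1, a collagen lysyl hydroxylase, and Itga6, a laminin receptor, were kept from 24 h on, and of these Lama5 and Itga6 had no 0 h region near a start. None of the 6 was first kept at 48 h, against 43.3% of all members.

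Genes of endocytosis and uptake, by which visceral endoderm absorbs nutrients, had members at 8 of 27 (29.6%, against 7.86% of all genes). Among genes with a promoter region the shares were 32% and 11.2%. Both backgrounds also apply to the lists below. On the second count, plasma proteins stood at 25%, parietal endoderm at 19.0%, and ligands and receptors at 22.6%. Epithelial junction and keratin genes were at 25%, pluripotency genes at 22.6% and AP-1 genes at 25%. Anpep, aminopeptidase N of the absorptive brush border, was called at chr7:79860847-79861582 in both libraries from 2 h on, at 43.9 and 45.7 at 2 h and between 79.1 and 94.4 later, and had a region open throughout 13219 bp downstream. Tfrc, the transferrin receptor, and Slc39a8, a metal transporter, were kept from 4 h on. Both were near a start at which another region was called in all 14 libraries. Pdzk1, a scaffold of brush border transporters, was kept from 16 h on, and Myo7a, a motor protein, from 24 h on. Pdzk1 also had a promoter lost by 48 h, as did Scarb1, making 2 of the 27 genes (7.41%, against 4.85% of all genes). Mme, the peptidase neprilysin, was kept only from 48 h. Cubn and Amn, which together form the receptor complex for vitamin B12 with intrinsic factor, were called only at 48 h and had no 0 h region near a start. The Cubn member, chr2:13491829-13492176, lay outside the gene body 190 bp upstream of the start, at percentiles of 64.7 and 60.1. Both subunits of this receptor thus stood among the latest of the uptake genes.

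Secreted plasma proteins, a product of visceral endoderm, had members at 4 of 37 (10.8%). Mttp had a promoter lost by 48 h, 1 of the 37 (2.70%, against 4.85% of all genes). Spink1, a protease inhibitor, was called at chr18:43737092-43737837 from 4 h on and had no 0 h region near a start. Its percentiles were 30.6 and 31.4 at 4 h and 84.5 and 83.8 at 48 h. C3, the complement factor, and Soat2, an intracellular enzyme of cholesterol esterification that the list also holds, were called at 48 h only, both with WGATAR and both beside the start. Apoe, a lipid carrier, had calls in both libraries at 4 h and 16 h but in 1 at 8 h and 24 h. Only 16 of the 37 genes had a promoter region in any library.

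Parietal endoderm genes had members at 4 of 21 (19.0%). Sparc had a promoter lost by 48 h, 1 of the 21 (4.76%, against 4.85% of all genes). Krt8, a keratin of simple epithelia, had the highest 48 h score among the lists made for this work, at chr15:102004212-102004773 over its start. It was called in both libraries from 4 h on, at percentiles of 26.0 and 28.0 at 4 h, 56.7 and 57.0 at 8 h, 70.4 and 76.8 at 16 h, 93.6 and 89.2 at 24 h and 96.2 and 97.6 at 48 h. Replicates were close at each time and did not overlap between times. Cryab, a small heat shock protein, was kept from 4 h on, Stra6, a retinol carrier receptor, from 16 h on and Podxl, a sialomucin of apical membranes, from 24 h on, all 3 without a 0 h region near a start. Stra6 stayed between 7.84 and 10.4 at 16 and 24 h and was at 82.5 and 85 at 48 h.

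Ligands and receptors had members at 12 of 61 genes (19.7%). A promoter lost by 48 h was present at 4 of the 61 (6.56%, against 4.85% of all genes), namely Kit, Fgfr1, Fgf4 and Fgf10. Of these, Fgf10 also had a member. Fgfr3, a fibroblast growth factor receptor, and Cer1, a secreted Nodal inhibitor of anterior visceral endoderm, were called in both libraries from 2 h on, 926 and 856 bp upstream of their starts and with WGATAR. Cer1, at chr4:82885558-82886449, was at 48.7 and 71.6 at 2 h and 47.6 and 63.5 at 48 h, without a steady change. Pdgfra, a growth factor receptor and PrE marker, had a member over a start at chr5:75154896-75155342. It was called from 16 h on, at 12.1 and 40.9, then 42.3 and 45.1 at 24 h and 77.9 and 74.8 at 48 h. A second Pdgfra member, at chr5:75151221-75151760 and with WGATAR, was called in both libraries at 8 and 16 h but in neither at 24 h, and the gene had a region open throughout, 999 and 4627 bp downstream of these members. Fgf10 was kept from 24 h on, and Ihh, a hedgehog ligand of visceral endoderm without a 0 h region near its start, and Pdgfa, a ligand of Pdgfra, from 48 h only. Of the 14 members at these genes, 8 were first kept at 48 h, against 43.3% of all members.

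**Figure D5:**
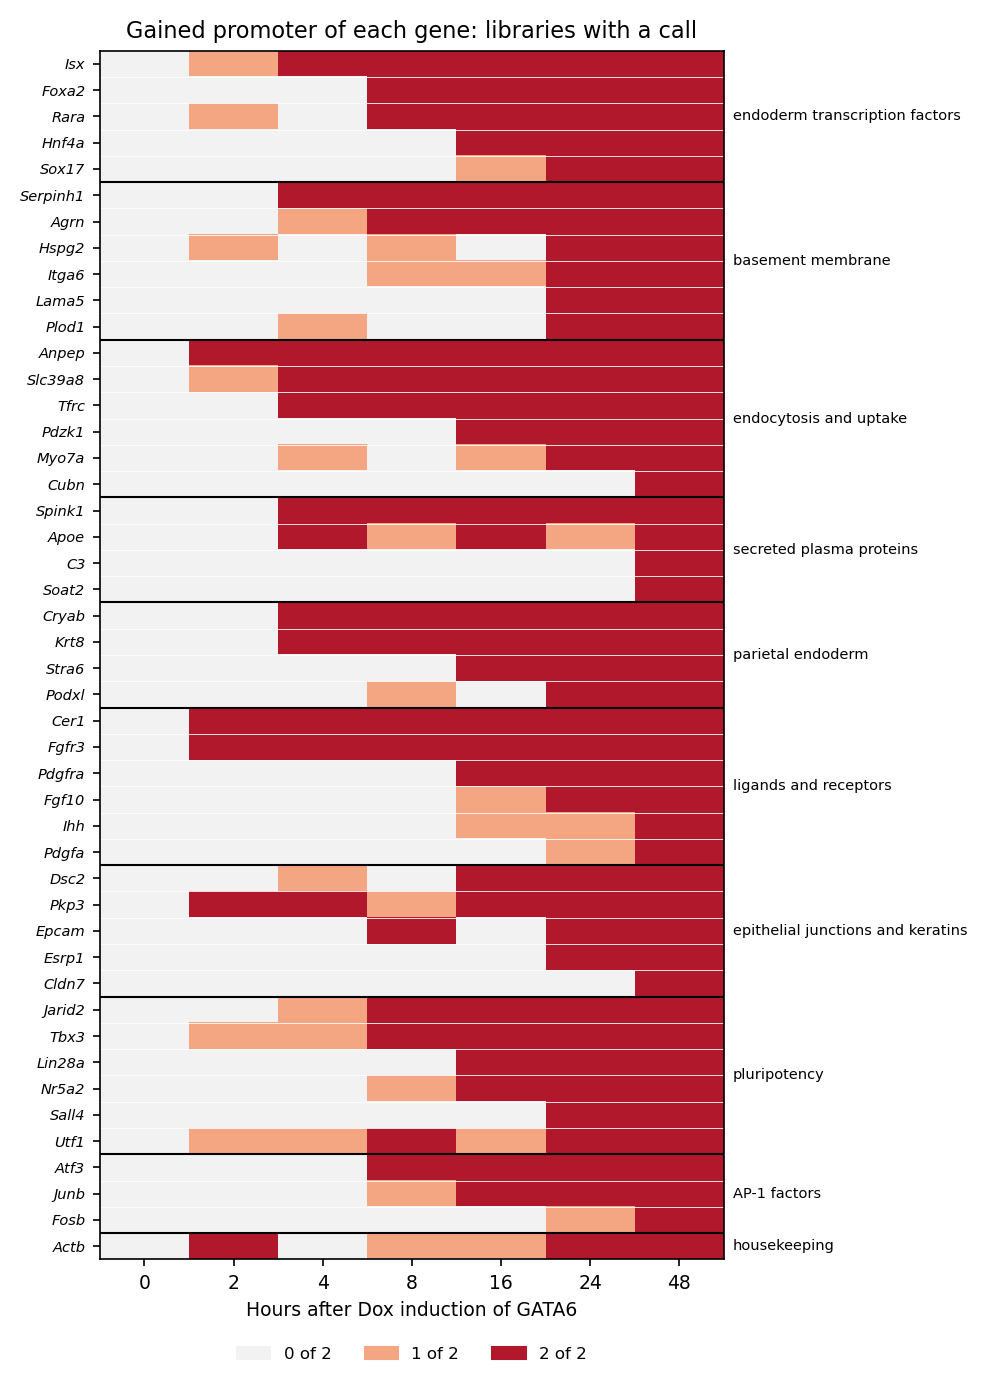
Number of libraries (0, 1 or 2 of 2) that called the gained promoter of each named gene against hours after Dox, with genes grouped by list. No gene is called at 0 h and each is called in both libraries at 48 h by the choice of regions; Anpep, Cer1 and Fgfr3 are called in both libraries from 2 h on, and Cubn, C3, Soat2 and Cldn7 at 48 h only.

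Epithelial junction and keratin genes had members at 11 of 48 (22.9%). A promoter lost by 48 h was present at 4 of the 48 (8.33%, against 4.85% of all genes). Krt8 apart, Dsc2, a desmosomal cadherin, and Pkp3, a desmosomal plaque protein, were kept from 16 h on and had no 0 h region near a start. Pkp3 was called in both libraries at 2 and 4 h and in 1 at 8 h. Esrp1, a splicing regulator of epithelia, was kept from 24 h on at percentiles of 49.4 and 41.0 and then 78.6 and 81.9. Epcam, an epithelial adhesion molecule, had calls in both libraries at 8, 24 and 48 h but in neither at 16 h, and Cldn7, a tight junction claudin, at 48 h only. The 8 h calls of Epcam were at percentiles of 14.6 and 33.8. Cdh5, an endothelial cadherin, and Dsp, encoding desmoplakin, were kept from 16 h on, and they too had no 0 h region near a start.

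Pluripotency genes had members at 7 of 33 (21.2%): Pou5f1, Tbx3, Nr5a2, Sall4, Utf1, Lin28a and Jarid2. None of them lacked a 0 h region near its starts, and 6 of 33 pluripotency genes (18.2%, against 4.85% of all genes) had a lost promoter. At Lin28a, an RNA-binding protein, an intronic member 737 bp upstream of a start was kept from 16 h on. Nr5a2, a nuclear receptor, had members at 2 starts, kept from 8 h and 16 h on. The Pou5f1 member, chr17:35505848-35506084, was kept from 8 h on at a low 48 h percentile of 26.1. Members at these genes were thus further regions at loci already called, which say nothing of expression.

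AP-1 genes had members at 3 of 14 (21.4%). Atf3, a stress-induced factor, was kept from 8 h on, Junb from 16 h on and Fosb, at a percentile of 9.54, from 48 h only. Lists for other lineages are short and also had members, at 1 of 16 trophectoderm genes (Gata2, kept from 8 h on), 2 of 13 neural genes (among them Pax6), 3 of 15 mesoderm and muscle genes (Mesp1, Myod1 and Hand2), 1 of 12 fibroblast genes (Twist1), 1 of 12 blood genes (Lyl1) and 1 of 9 germ cell genes (Ddx4). Their shares were 6.25%, 15.4%, 20.0%, 8.33%, 8.33% and 11.1% in this order, against 7.86% of all genes. The trophectoderm, fibroblast, blood and germ cell shares rest on 1 gene each and cannot be told from that background. Among genes with a promoter region the mesoderm and muscle list was at 33.3% and the endoderm factors at 32.1%, against 11.2% of all such genes.

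Of 15 housekeeping genes, Actb, encoding beta-actin, had a member. Its start region at chr5:142905691-142906344 was called in neither 0 h library, in both at 2 h (percentiles of 14.4 and 6.40), in neither at 4 h, in 1 at each of 8 and 16 h and in both at 24 and 48 h (63.7 and 68.1 at 48 h). Another 11 housekeeping genes had a promoter called in all 14 libraries. Its scores were below the percentile of 20 wherever it was called up to 16 h, and from peak calls alone a weakly open promoter and a closed one cannot be told apart at 0 h.

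By score, the leading members over a start of genes without a 0 h region were, for 2 h, Tnnt3, Arl14 and Brap. Tnnt3, a troponin, had a region at chr7:142498800-142499799 with percentiles of 93.2 and 97.2 at 2 h and 97.0 to 99.8 later. Arl14, a small GTPase of the ARF family, was at 54.1 and 29.1 at 2 h and 94.6 and 96.1 at 48 h. For 4 h they were Mylk3, a myosin kinase, Spink1 and Pdcd6ip, an adaptor of membrane remodelling. Mylk3 was at 51.9 and 52.9 at 4 h and 97.5 and 92.7 at 48 h.

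For 8 h they were Pcdhb16, a clustered protocadherin, Sh3tc2 and Sgsh, a lysosomal sulfatase. For 16 h they were Hnf4a, Sycn, encoding syncollin, and Akr1c19, an aldo-keto reductase, for 24 h Cmbl and Olfr145, an olfactory receptor gene, and for 48 h Leap2, a secreted liver peptide, Ihh and Golt1a. Pcdhb16, Akr1c19 and Olfr145 belong to families of similar genes, where reads shared between copies could affect a peak. Of the 18 members ranked in this way 9 held WGATAR in the central 200 bases.

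Members of genes with another promoter open throughout had their highest scores at Tmem144, Smurf1, Dennd6a, Myo18a and Rasa2. The Tmem144 member, chr3:79851865-79853026, covered a start 9334 bp upstream of the region open throughout, and was at 86.1 and 89.4 at 4 h and 99.1 and 98.8 at 48 h. That of Smurf1, a ubiquitin ligase, lay 65968 bp downstream of the open region at chr5:144898407-144899487, held WGATAR and was at 94.0 and 95.2 already at 2 h. That of Myo18a covered a start 5767 bp downstream of the open region and went from 10.7 and 1.03 at 8 h to 73.7 and 86.5 at 16 h. Those of Dennd6a and Rasa2 lay within 1 kb of the start that was already open and were kept from 24 h on. A gained region at these genes is thus in some cases a separate start and in others the flank of an open one.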

How the data were processed

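ATAC-seq was made from 50000 KH2 ES cells per library, 2 libraries at each of 7 time points, and groups were taken from the labels. The authors deposited 1 peak list per library with 1 unnamed value per peak, treated here as the authors' score; its scale is not stated. ATAC-seq processing used ENCODE's pipeline. By their names, the lists passed an irreproducible discovery rate of 0.05 on pseudoreplicates of that library and a blacklist filter, so replicates were not pooled. No read counts were used here, so the depth of each library is not given, and intervals cover counting over regions only. The submitters' processing notes name mm10 and GRCm38, and 0 of 839049 peaks ended past a GRCm38 chromosome.

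The 821472 peaks on the 19 autosomes were merged where they overlapped by at least 1 bp. Starts were those of 52092 protein-coding transcripts (GENCODE vM21), with identical positions counted once. Motifs were sought in the 200 bases around the centre, and the CpG ratio was the number of CpG times length over the product of C and G. Shares called were compared with an exact two-sided sign-flip test over the 10 libraries of 2 to 24 h, with Benjamini-Hochberg adjustment over 5 differences at 0.05, and the trend with 100000 shuffles of the times. Scripts were tested on simulated data. Comparison of 0 h with 48 h, 2 libraries against 2, cannot give an exact p below 0.333 and was part of the choice of members, so it has no test. Members, gene lists and tests were chosen with earlier results of these data known. Named genes were up to 6 per list of this work, 3 per onset among members over a start of a gene without a 0 h region within 1 kb, 5 with another promoter open throughout, ranked by mean 48 h score percentile, and those nearest the 1 kb limit; others named on the lists were chosen after their values were seen. Software was Python 3.11.15, numpy 2.4.6, pandas 2.3.3, scipy 1.17.1, pysam 0.24.0 and matplotlib 3.10.9. Alternatives covered the distance, the starts, peak and overlap thresholds, merging, motif window, onset, a replicate block and leaving out libraries. A few genes that the rule chose are not reported here.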

Additional observations from a re-analysis of the deposited data

How the results depend on the processing

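Calls depend on depth, and read numbers were not used here. With replicate 1 or replicate 2 left out at every time point, members numbered 3342 to 3396, WGATAR was in 20.5% to 21.9%, 47.4% to 50.5% covered a start, 43.5% to 46.8% had another promoter open throughout and 35.8% to 43.9% were kept from 48 h only. The differences in share called then ranged from 16.9 to 20.5 points (over minus beside a start), from -11.8 to -10.5 (another promoter open), from -1.67 to 5.44 (WGATAR), from -1.67 to 7.82 (CpG ratio) and from -3.12 to 4.79 (members minus distal regions), with rho at 1; 5 libraries cannot give a sign-flip p below the threshold. Leaving out 1 of the 10 libraries at a time gave 9.61 to 11.7, -7.97 to -6.58, 3.98 to 5.82, -0.529 to 1.84 and -1.96 to -0.323 points, and rho of 0.983.

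With midpoints within 500 bp, the shares with WGATAR, over a start and with another open promoter were 19.4%, 74.9% and 30.6%; with gene 5′ ends alone 22.3%, 50.3% and 27.6%; with the 50000 highest peaks 23.4%, 58.7% and 35.6%; with 50% coverage 22.9%, 61.3% and 26.0%; and with peaks within 100 bp merged 27.9%, 65.6% and 30.2%. The share kept from 48 h only was 47.4% with 50% coverage, 39.3% with wider merging and 23.5% with at least 1 library of each later time point. Members minus distal regions turned to 1.03 points with 50% coverage and 1.64 with wider merging, neither past the threshold. WGATAR in the whole region was present in 42.8%, where wider regions hold more motifs. The WGATAR difference passed with the 50000 highest peaks (6.79 points, adjusted p = 0.0163), in whole regions (13.7 points, adjusted p = 0.00488) and, chosen after seeing the data, in CpG-poor members (7.62 points, exact p = 0.0117). With regions merged from the 0 h and 48 h lists alone, also chosen after seeing the data, 50.9% of members covered a start and 41.8% had another open promoter, the WGATAR difference passed (6.17 points) and the CpG difference turned to -0.380 points. Of 159 values recomputed, 113 were counted as kept. Differences and trends had to keep their direction and call, and percentages of members had to stay within the Wilson interval of the main count. That interval covers counting over regions and not the spread between replicates. Numbers of members from 1294 to 2023 were also counted as kept, against 1780 in the main setting. The causes of the changes in the other values were not tested. With a replicate block, rho was 0.985 (exact permutation p = 0.000139) and members minus distal regions -1.18 points (exact sign-flip p = 0.688), which changed no call. The block was not run for the other results. With 1 mean per time point, their sign-flip p could not fall below the threshold.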
